A study of Homo sapiens with 9 samples.

Results

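ERV1 is the family of class I endogenous retroviruses, the gammaretrovirus-like proviruses of the human genome. In RNA-seq of HAP1 cells with and without MATR3, the count table holds repeat subfamilies beside genes, and the entries whose family field reads ERV1 were taken. They number 291 of 22114 entries, of which 65 are internal entries (names ending in -int) and 226 are LTR entries. HAP1 is a near-haploid human line derived from the chronic myeloid leukaemia line KBM-7, and MATR3 encodes matrin 3, a nuclear protein that binds RNA and DNA. The knockout (KO) libraries came from MATR3 KO clone 5 (n = 2) and MATR3 KO clone 1 (n = 2). The wild-type (WT) libraries came from WT clone 7 (n = 2) and WT clone 1 (n = 3). All clones were bought, the WT clones as different batches of 1 catalogue item, and the labels give no treatment for any of them. Each group is 1 clone as named here, and for WT a difference between clones cannot be told apart from one between these batches. The labels do not say whether replicates of a clone were grown separately, so the p-values cover only how far these libraries differ, which could be technical.

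A provirus of this kind has an internal region with the gag, pol and env genes between a pair of long terminal repeats (LTRs), which carry the promoter and the polyadenylation signal. Recombination between the LTRs of one provirus leaves a solo LTR, so LTR copies outnumber internal regions in the genome, and RNA of an LTR entry can come from either source. Several families are named for the tRNA that primes their reverse transcription, such as HERVH (histidine), HERV-E (glutamate), HERV-W (tryptophan) and HERV-I (isoleucine). HERVH with its LTR7 promoters is known for transcription in pluripotent cells, and the LTR12 elements of HERV9 for promoter activity in germ cells. In most somatic cells KRAB zinc finger proteins, their corepressor TRIM28, the histone methyltransferase SETDB1 and DNA methylation hold these elements silent. The counts are sums over all copies of a subfamily, so single copies are not resolved here.

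Library totals ran from 16103754 to 34407309 counts. MATR3 RNA was at 40.8 to 49.3 counts per 1000000 counts (CPM) in KO libraries, against 211 to 224 CPM in WT libraries, so every library matched its label. Of 8 haematopoietic genes listed for the line's origin, 2 (RUNX1 and KIT) were in the table and the others were not analysed here. Both were lower in KO. KIT was at 0.635 to 1.75 CPM in KO libraries and 7.70 to 8.94 CPM in WT libraries (-2.92, SE 0.24, edgeR adjusted p = 3.39e-06), and RUNX1 was at 9.12 to 11.2 CPM in KO libraries and 13.6 to 23.0 CPM in WT libraries (-0.73, SE 0.15, edgeR adjusted p = 0.00435). Neither was called between the WT clones, and their part in the ERV1 levels was not tested. ERV1 took 0.284 to 0.357% of all counts in the 4 KO libraries and 0.266 to 0.652% in the 5 WT libraries. WT clone 1 replicate 1 stood apart, with 14.0% of its counts in repeats of any kind, against 8.97 to 11.2% in KO libraries and 7.90 to 10.5% in the other WT libraries. It gave the highest CPM of the 9 libraries for 205 of the 282 tested ERV1 entries. Values without it are given beside the results whose call it changes or that it moves most.

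Most ERV1 subfamilies were present at modest levels. The mean over the 9 libraries reached 1 CPM for 261 of the 291 entries, 10 CPM for 78 and 100 CPM for 3, which were HERVH-int, LTR12C and MER61-int. The median internal entry stood at 6.43 CPM and the median LTR entry at 4.75 CPM. These levels depend on the number and length of the copies of each subfamily, which were not given, so subfamilies are compared between libraries and not with each other. All 65 internal entries and 217 of the 226 LTR entries passed the filter on low counts. The other 9 LTR entries (HERV1_LTRc, LTR06, LTR10B, LTR1B1, LTR1C3, LTR1C, LTR60, LTR72B and LTR7A) had 44 to 102 counts in total over the 9 libraries and were not tested.

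KO and WT libraries differed in a small set of ERV1 subfamilies. The largest rise was that of HERVE_a-int, followed by HERV15-int and MER61A, and the largest falls were those of HERV9NC-int, LTR7Y and HUERS-P3b-int, whose libraries of WT clone 7 all lay below those of WT clone 1, followed by LTR10G and LTR39-int. Between KO and WT, 21 of 282 ERV1 entries were called at an edgeR adjusted p below 0.05 (7.45%), 7 of them higher and 14 lower in KO, where 22.1% of all 18829 tested entries were called (10.8% higher, 11.3% lower). Internal entries made up most of the calls, with 13 of 65 (20%; 5 higher, 8 lower) against 8 of 217 LTR entries (3.69%; 2 higher, 6 lower). Of the 770 repeat subfamilies outside ERV1, 17 were called (2.21%). The median log2 difference was -0.11 for internal entries and -0.10 for LTR entries, beside -0.01 over all tested entries and -0.10 over other repeats. Without WT clone 1 replicate 1 these medians were -0.04 for internal and 0.006 for LTR entries. KO and WT libraries did not overlap for 17 ERV1 entries (6 above, 11 below), against 22.2% of all entries. Calls with a fold of at least 2 numbered 8 of the 21 among 282 ERV1 entries and 1097 of the 4161 among all 18829 tested entries. With the replicate number added as a block, 14 entries were called (8 higher, 6 lower), where 20% of all tested entries were called. Leaving out KO clone 1 replicate 1 left 12 calls and leaving out its replicate 2 left 13. In these fits 16.8% and 17.9% of all tested entries were called, against 22.1% with all libraries. Falls were 5 and 6 in those fits. They were 7 when KO clone 5 replicate 2 was left out and 8 when WT clone 1 replicate 3 was. Rises were 11 without WT clone 1 replicate 1. LTR calls were 3 without KO clone 1 replicate 1, 4 without KO clone 1 replicate 2, 5 without KO clone 5 replicate 2 and 13 without WT clone 7 replicate 2. Of all tested entries, 17.6% were called without KO clone 5 replicate 2 and 20.1% without WT clone 7 replicate 2. The share was 19.9% without WT clone 1 replicate 3 and 22.4% without WT clone 1 replicate 1. The authors' deposited table has 24 ERV1 entries with an adjusted p below 0.05 (7 higher, 17 lower in KO), and 21 of these are the calls above.

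**Figure D1:**
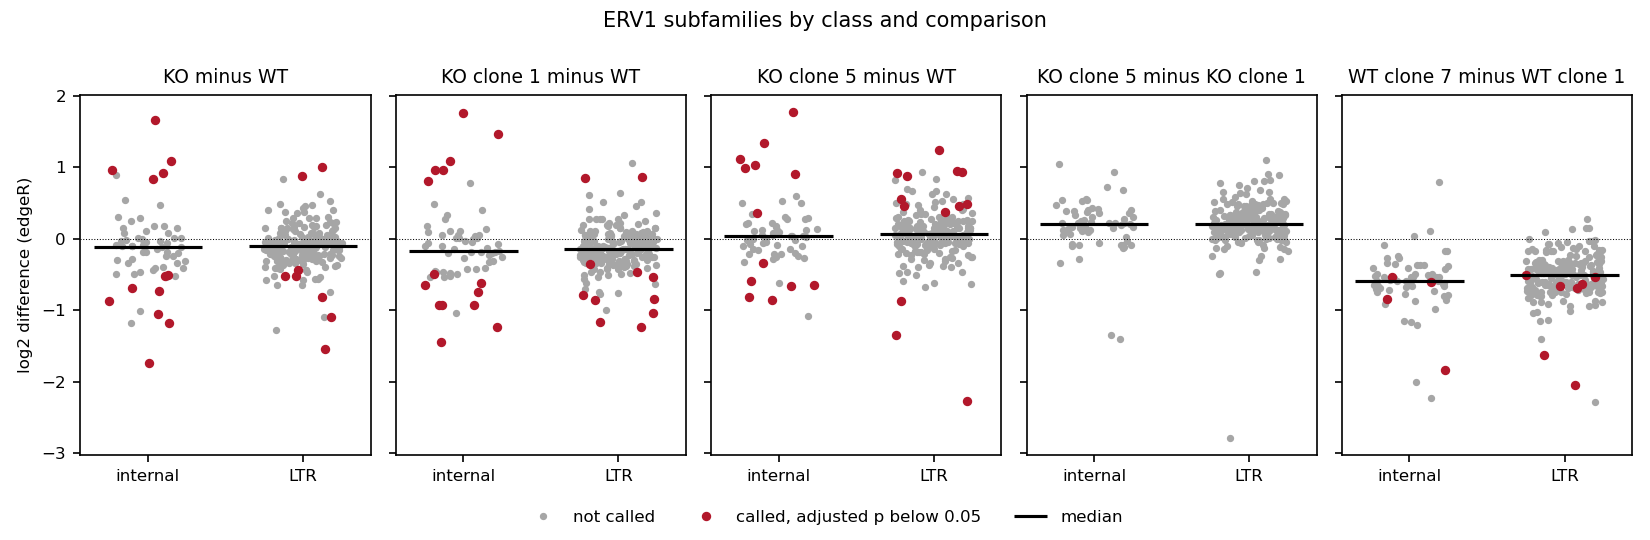
Each point is 1 tested ERV1 entry, with its edgeR log2 difference on the y axis and internal (65) or LTR (217) entries on the x axis, in 5 comparisons; red points were called at adjusted p below 0.05 and black lines are medians. The medians lie near 0 against WT (-0.11 and -0.10 for KO), whereas nearly all points lie below 0 for WT clone 7 minus WT clone 1.

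HERV-E elements showed the largest rise. HERVE_a-int, an internal entry of the HERV-E proviruses, was at 11.6, 9.38, 10.5 and 10.6 CPM in KO libraries, against 5.31, 3.16, 3.37, 2.45 and 2.42 CPM in WT libraries. All 4 KO libraries lay above all 5 WT libraries, and HERVE_a-int was 3.17-fold higher in KO (log2 difference 1.67, SE 0.20, edgeR adjusted p = 7.45e-05). Harlequin-int, a mosaic provirus related to HERV-E, was at 86.1, 93.0, 84.3 and 83.4 CPM in KO libraries and at 63.6, 45.2, 43.3, 35.5 and 34.8 CPM in WT libraries. Its groups did not overlap either, with a 1.96-fold rise (0.97, SE 0.15, edgeR adjusted p = 0.000509). The third internal entry of this family, HERVE-int, did not pass the test (24.9 ± 1.5 CPM in KO, n = 4, and 28.3 ± 4.0 CPM in WT, n = 5; -0.19, edgeR adjusted p = 0.214). Neither did the LTRs that flank these proviruses, LTR2 (0.02), LTR2B (-0.18) and LTR2C (0.11).

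The MER61 provirus rose in its internal entry and in 1 of its 6 LTR entries. MER61-int was at 124.9, 131.7, 167.1 and 151.3 CPM in KO libraries, against 100.4, 76.8, 73.9, 66.7 and 61.7 CPM in WT libraries. MER61A, an LTR of this provirus, was at 17.2, 18.9, 23.1 and 23.7 CPM in KO libraries, against 13.6, 10.6, 10.7, 9.12 and 7.88 CPM in WT libraries. KO and WT did not overlap in either, and the rises were 1.90-fold for MER61-int (0.92, SE 0.13, edgeR adjusted p = 0.000324) and 2.0-fold for MER61A (1.00, SE 0.15, edgeR adjusted p = 0.000404). The other MER61 LTRs were not called, with log2 differences of 0.22 for MER61B, 0.06 for MER61C, 0.19 for MER61D, -0.29 for MER61E and -0.56 for MER61F.

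HERV15-int, MER83B and PRIMA41-int rose as well. HERV15-int was at 3.66, 3.89, 4.84 and 5.07 CPM in KO libraries and at 2.47, 2.104, 2.45, 1.85 and 1.30 CPM in WT libraries (1.09, SE 0.19, edgeR adjusted p = 0.0015). MER83B, an LTR entry, was at 2.90, 3.84, 3.84 and 3.33 CPM in KO libraries and at 2.16, 1.67, 1.98, 1.88 and 1.80 CPM in WT libraries (0.88, SE 0.15, edgeR adjusted p = 0.00115). For both, every KO library exceeded every WT library. PRIMA41-int, the internal entry that goes with MER41 LTRs, was at 9.17 to 11.1 CPM in KO libraries and 4.23 to 9.25 CPM in WT libraries (0.84, SE 0.21, edgeR adjusted p = 0.0112). Its groups overlapped because WT clone 1 replicate 1, at 9.25 CPM, was above 2 of the KO libraries. The matching LTR of HERV15-int, LTR15, was not called (-0.09), nor were MER83B-int (-0.44) and MER41B (-0.08, SE 0.17, edgeR adjusted p = 0.784).

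These 7 entries were also higher in each KO clone against WT. The log2 differences were 0.81 (MER61-int) to 1.76 (HERVE_a-int) for KO clone 1 and 0.90 (PRIMA41-int) to 1.78 (HERVE_a-int) for KO clone 5, all called. They were also called against either WT clone alone, PRIMA41-int only just against WT clone 1 (0.64, SE 0.20, edgeR adjusted p = 0.05 after rounding). PRIMA41-int lost its KO against WT call in 2 of 22 alternative fits. In the 9 refits that each left out 1 library, all 7 kept their calls, and the lowest log2 difference was 0.75, for PRIMA41-int. All these comparisons reuse the libraries in which the 7 entries were first called, so they are not independent of that call.

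**Figure D2:**
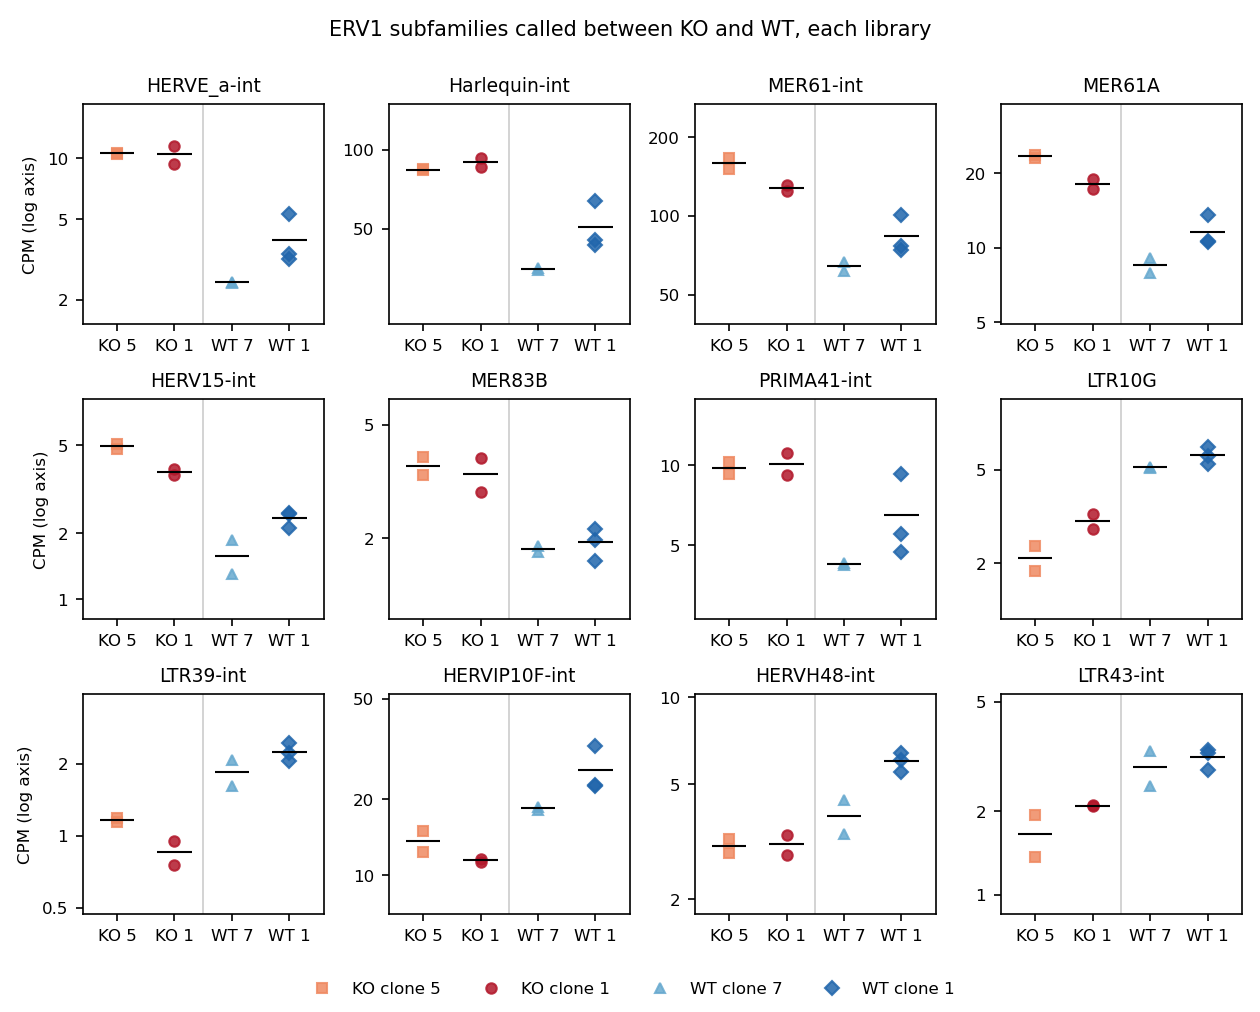
Points are single libraries in CPM on a log axis for 12 called ERV1 entries, KO clones left of the grey line and WT clones right of it, and black bars are clone means. HERVE_a-int, Harlequin-int, MER61-int, MER61A, HERV15-int and MER83B have every KO library above every WT library, PRIMA41-int overlaps in 1 WT library, and the last 5 entries have every KO library below every WT library.

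Among the falls, LTR10G and HERVIP10F-int belong to HERV-I. LTR10G was at 3.25, 2.80, 2.37 and 1.85 CPM in KO libraries, against 6.23, 5.74, 5.29, 5.06 and 5.15 CPM in WT libraries, with no overlap (2.13-fold lower; -1.09, SE 0.16, edgeR adjusted p = 0.000418). HERVIP10F-int was at 11.6, 11.3, 15.0 and 12.4 CPM in KO libraries, against 32.6, 22.6, 22.7, 18.1 and 18.6 CPM in WT libraries, also without overlap (-0.87, SE 0.16, edgeR adjusted p = 0.00251). The other 3 HERV-I internal entries and the other 7 tested LTR10 entries were not called. Their log2 differences ran from -0.39 (HERVI-int) to 0.19 (LTR10B1), with -0.11 for LTR10A (SE 0.23, edgeR adjusted p = 0.784).

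LTR39-int was at 0.755, 0.952, 1.19 and 1.15 CPM in KO libraries, against 2.22, 2.06, 2.45, 2.08 and 1.61 CPM in WT libraries (-1.05, SE 0.20, edgeR adjusted p = 0.00216). All KO libraries were below all WT libraries, while the entry LTR39 was not called (-0.19). LTR10G, HERVIP10F-int and LTR39-int were also lower in each KO clone and against either WT clone alone, in comparisons that reuse the same libraries.

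HERVH48-int, the provirus family from which the placental fusion inhibitor suppressyn derives, was at 2.85 to 3.35 CPM in KO libraries and 3.37 to 6.42 CPM in WT libraries (-0.74, SE 0.19, edgeR adjusted p = 0.0141). The groups did not overlap, although the highest KO library and the lowest WT library, of WT clone 7, were nearly level. LTR43-int was at 1.36 to 2.11 CPM in KO libraries and 2.48 to 3.33 CPM in WT libraries (-0.69, SE 0.17, edgeR adjusted p = 0.0128). Both kept their calls without any 1 library, but lost them against WT clone 7 alone (HERVH48-int -0.32, edgeR adjusted p = 0.238; LTR43-int -0.64, edgeR adjusted p = 0.0844).

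The remaining 9 falls were less stable. MER51C (-0.44, edgeR adjusted p = 0.0152), MER57E3 (-0.53, 0.0291), MER4D0 (-0.52, 0.0274), LTR27C (-0.82, 0.0278), PRIMA4-int (-0.51, 0.0338) and LTR49-int (-0.52, 0.0398) fell by less than 2-fold. MER51C lost its call without KO clone 1 replicate 1 (-0.39). MER57E3 lost it without either KO clone 1 library or KO clone 5 replicate 2 (-0.55 to -0.47). MER4D0 lost it without those libraries or WT clone 1 replicate 3 (-0.54 to -0.45), and LTR27C without either KO clone 1 library or WT clone 1 replicate 3 (-0.79 to -0.66). PRIMA4-int and LTR49-int lost it without any 1 of the 3 WT clone 1 libraries, either KO clone 1 library or KO clone 5 replicate 2 (-0.52 to -0.40 and -0.55 to -0.41). LTR7Y, HERV9NC-int and HUERS-P3b-int are described with HERVH and HERV9. With replicate number as a block, 8 falls were no longer called, with edgeR adjusted p of 0.0516 for MER57E3, 0.0542 for LTR27C, 0.0623 for HERV9NC-int, 0.0636 for HUERS-P3b-int, 0.0729 for MER4D0, 0.0738 for LTR49-int, 0.0743 for LTR7Y and 0.0873 for PRIMA4-int.

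HERVH RNA was low in both KO clones and in WT clone 7, and high only in WT clone 1 among these 4 clones. HERVH-int was at 467 and 565 CPM in KO clone 1 and at 643 and 658 CPM in KO clone 5. It was at 484 and 555 CPM in WT clone 7 and at 2462, 1519 and 1575 CPM in WT clone 1. WT clone 7 thus lay within the range of the KO libraries, and KO against WT was not called (-1.18, SE 0.41, edgeR adjusted p = 0.0572). The difference between WT clone 7 and WT clone 1 was called (-1.83, SE 0.20, edgeR adjusted p = 0.0286). Against WT clone 7 alone the KO libraries differed by 0.16 (SE 0.13, edgeR adjusted p = 0.408), and against WT clone 1 alone by -1.67 (SE 0.18, edgeR adjusted p = 0.000108). Without WT clone 1 replicate 1 the KO against WT difference was -0.83 (edgeR adjusted p = 0.101). Without either WT clone 7 library KO against WT was called (-1.390 without replicate 1, -1.37 without replicate 2). In bulk RNA, fewer cells that express a subfamily and less of its RNA per cell cannot be told apart.

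HERVH-int alone took 16.5 to 19.3% of all ERV1 counts in KO libraries. In WT libraries its share was 18.4 to 20.9% in WT clone 7 and 34.6 to 37.7% in WT clone 1. The ERV1 counts without HERVH-int were 0.237 to 0.293% of all counts in KO libraries and 0.210 to 0.406% in WT libraries.

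The LTR7 subtypes, which are the promoters of HERVH, split in the same clones. LTR7Y was at 25.4, 27.1, 29.5 and 37.9 CPM in KO libraries, at 29.2 and 31.7 CPM in WT clone 7 and at 178.8, 96.8 and 101.2 CPM in WT clone 1. It was called between KO and WT (-1.54, SE 0.46, edgeR adjusted p = 0.0313) and between WT clone 7 and WT clone 1 (-2.05, SE 0.25, edgeR adjusted p = 0.0322), but KO against WT clone 7 alone gave -0.03 (SE 0.14, edgeR adjusted p = 0.915). The KO call of LTR7Y was lost without any 1 KO library or WT clone 1 replicate 2 or 3 (-1.67 to -1.48), and without WT clone 1 replicate 1 the difference was -1.12 (edgeR adjusted p = 0.0462). LTR7B was at 13.4 to 16.6 CPM in KO libraries, at 13.8 and 15.6 CPM in WT clone 7 and at 36.0 to 64.0 CPM in WT clone 1. It was not called between KO and WT (-1.09, edgeR adjusted p = 0.0571) and was lower in WT clone 7 than in WT clone 1 (-1.63, edgeR adjusted p = 0.0322). It was called without WT clone 7 replicate 1 (-1.28) or replicate 2 (-1.28), and was at -0.73 without WT clone 1 replicate 1.

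LTR7 itself did not follow that pattern. It was at 38.6, 45.1, 51.5 and 55.8 CPM in KO libraries, at 33.7 and 36.1 CPM in WT clone 7 and at 49.0, 47.6 and 51.3 CPM in WT clone 1. KO and WT overlapped (0.13, SE 0.14, edgeR adjusted p = 0.559). Against WT clone 7 alone LTR7 was higher in KO (0.45, SE 0.13, edgeR adjusted p = 0.0349), and against WT clone 1 alone it was at -0.05. KO clone 5 was higher than WT (0.37, SE 0.08, edgeR adjusted p = 0.00738), KO clone 1 was not called (0.02), and WT clone 7 was lower than WT clone 1 (-0.50, edgeR adjusted p = 0.0424). LTR7C was at 3.37 to 5.02 CPM in KO libraries and 3.29 to 6.12 CPM in WT libraries and was not called (-0.21, edgeR adjusted p = 0.532).

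ESRG, a long noncoding RNA gene of embryonic stem cells known to start in an LTR7 of a HERVH provirus, was higher in KO. It was at 26.1, 33.5, 48.0 and 51.1 CPM in KO libraries, against 7.90, 8.32, 7.80, 6.31 and 7.51 CPM in WT libraries. Every KO library was above every WT library, by 5.25-fold on average (2.39, SE 0.18, edgeR adjusted p = 1.98e-06). KO clone 5 was above KO clone 1 (0.73, SE 0.12, edgeR adjusted p = 0.0274), and WT clone 7 was not called against WT clone 1 (-0.23, edgeR adjusted p = 0.383). Of 6 listed HERVH-linked transcripts, 2 were tested, and the other, LINC00458, was not called (0.44, SE 0.32, edgeR adjusted p = 0.376). How a read that overlaps both an ESRG exon and a HERVH copy was assigned is not given in the sources used here.

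HERV9 entries were split in part. HERV9NC-int was at 13.0, 14.7, 17.8 and 17.9 CPM in KO libraries, at 18.9 and 19.0 CPM in WT clone 7 and at 138.0, 43.4 and 47.6 CPM in WT clone 1. KO libraries were all below WT libraries, with the highest KO library at 17.9 CPM and the lowest WT library at 18.9 CPM (3.34-fold lower; -1.74, SE 0.52, edgeR adjusted p = 0.0316). Without WT clone 1 replicate 1 the log2 difference was -1.03, without any 1 KO library the call was lost (-1.804 to -1.66), and against WT clone 7 alone it was -0.26 (edgeR adjusted p = 0.19). HUERS-P3b-int, of the HUERS-P3 family, was also highest in WT clone 1. It was at 6.39 to 10.6 CPM in KO libraries, 10.1 and 11.3 CPM in WT clone 7 and 16.6 to 41.9 CPM in WT clone 1. Libraries of KO and WT clone 7 overlapped, and KO against WT was called (-1.18, SE 0.37, edgeR adjusted p = 0.0398). Its call was lost without any 1 KO library or WT clone 1 replicate 2 or 3 (-1.303 to -1.072), and without WT clone 1 replicate 1 the log2 difference was -0.70. HERV9-int was not called (0.31, edgeR adjusted p = 0.192), nor was LTR12C, the LTR entry with the most counts, at 119 to 153 CPM in KO libraries and 109 to 292 CPM in WT libraries (-0.36, SE 0.24, edgeR adjusted p = 0.336). Without WT clone 1 replicate 1 LTR12C was at -0.09.

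**Figure D3:**
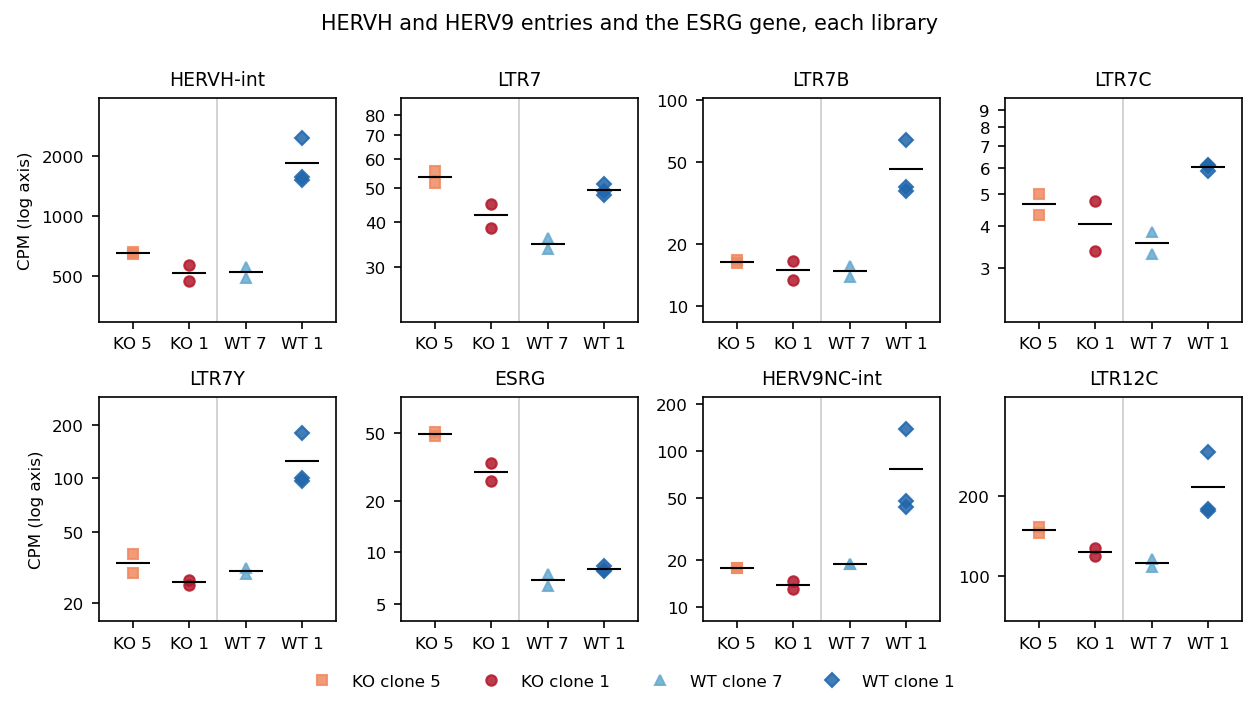
Points are single libraries in CPM on a log axis for HERVH-int, the LTR7 entries, the gene ESRG, HERV9NC-int and LTR12C, KO clones left of the grey line and WT clones right of it, and black bars are clone means. HERVH-int, LTR7B, LTR7Y and HERV9NC-int are high in WT clone 1 and near the KO level in WT clone 7, while ESRG is at 26.1 CPM or more in every KO library and at 8.32 CPM or less in every WT library.

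Nearly all ERV1 entries were lower in WT clone 7 than in WT clone 1 by sign, and few were called. Of 282 tested entries, 274 had the lower value in WT clone 7, with a median log2 difference of -0.53, beside 0.003 over all tested entries. Repeats outside ERV1 had a median of -0.51, so the shift was not particular to ERV1. After adjustment 11 ERV1 entries were called, all lower in WT clone 7 (4 internal, 7 LTR), where 0.722% of all entries were called and 0.568% were lower. They were LTR7Y, HERVH-int, LTR7B, PABL_B-int, MER4A1, MER50, MER52A, PRIMA4-int, HERV17-int, LTR8 and LTR7. This count was 0 without either WT clone 7 library or any 1 KO library. It was 2 without WT clone 1 replicate 3, 29 without WT clone 1 replicate 2 and 60 without WT clone 1 replicate 1. The shares of all tested entries called in these refits are not given here, so the swings are not shown to be particular to ERV1. Of the 21 entries called between KO and WT, LTR7Y and PRIMA4-int were also among these 11.

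The sign of the ERV1 medians therefore depended on the WT clone that KO was set against. Against WT clone 7 alone, 40 ERV1 entries were called (37 higher, 3 lower in KO) and the median was 0.22 for internal and 0.23 for LTR entries, where 20.5% of all entries were called (10.3% higher, 10.2% lower). Against WT clone 1 alone, 56 were called (7 higher, 49 lower) and the medians were -0.33 and -0.30, where 20.5% of all entries were called (9.58% higher, 11% lower). Of 280 entries tested both ways, 7 were called higher both times (the 7 rises above) and 3 lower both times (LTR10G, LTR39-int and HERVIP10F-int). The share of all tested entries called the same way both times is not given here, so these counts have no background. PABL_B-int and HERV9N-int were called in opposite directions. PABL_B-int was at 17.2 to 19.2 CPM in KO libraries, at 12.8 and 13.0 CPM in WT clone 7 and at 20.5 to 27.3 CPM in WT clone 1, so KO lay between the WT clones (0.50 against WT clone 7, SE 0.09, edgeR adjusted p = 0.00398; -0.34 against WT clone 1, SE 0.10, edgeR adjusted p = 0.0369). HERV9N-int gave 0.67 against WT clone 7 (SE 0.21, edgeR adjusted p = 0.0497) and -1.55 against WT clone 1 (SE 0.33, edgeR adjusted p = 0.00807). These comparisons share the KO libraries.

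**Figure D4:**
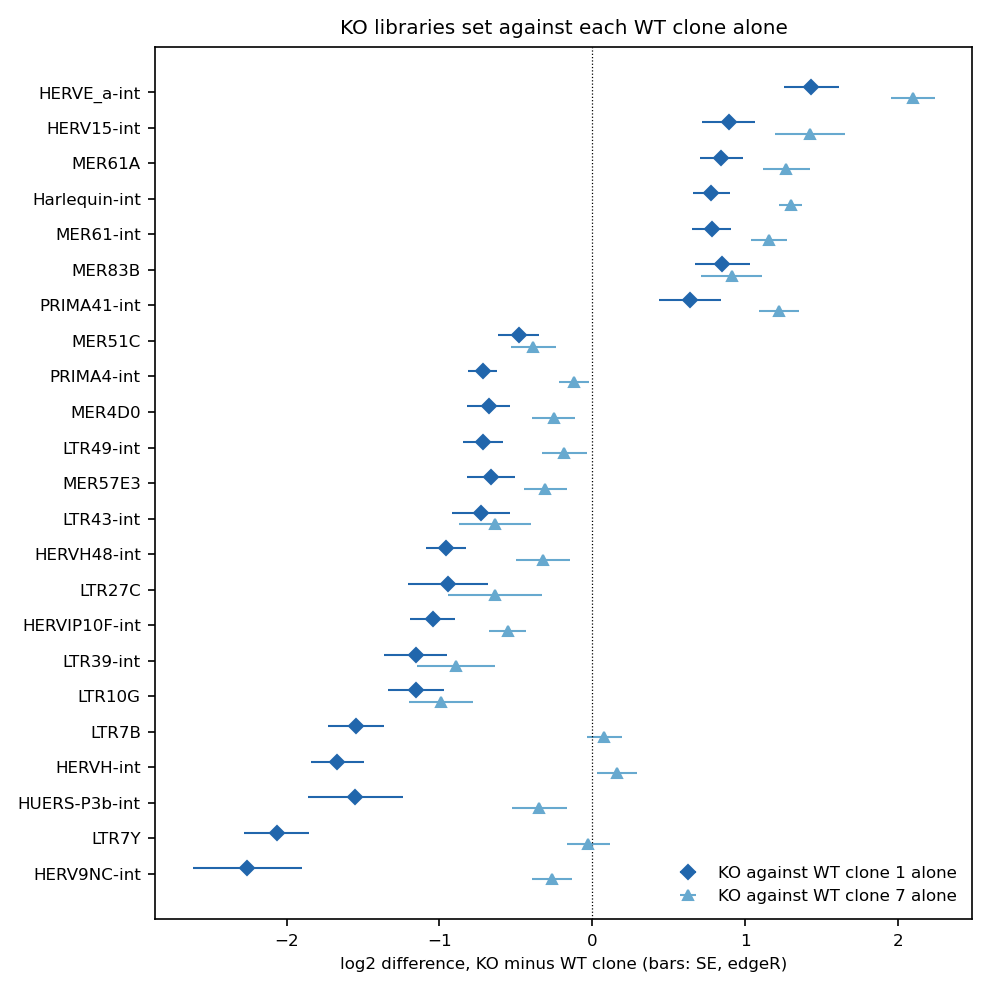
Points are edgeR log2 differences of the 4 KO libraries against WT clone 1 alone (diamonds) and against WT clone 7 alone (triangles) for the 21 called ERV1 entries with HERVH-int and LTR7B, and bars are SE. The 7 rises lie right of 0 in both, whereas HERVH-int, LTR7B and LTR7Y lie near 0 against WT clone 7 and between -2.07 and -1.55 against WT clone 1.

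Each KO clone was also set against the mean of the WT clones, which both comparisons share. KO clone 1 gave 26 calls (8 higher, 18 lower), where 19.3% of all entries were called (9.39% higher, 9.86% lower). KO clone 5 gave 26 calls (17 higher, 9 lower), where 18.6% of all entries were called (9.13% higher, 9.44% lower). The median over ERV1 was -0.14 for KO clone 1 and 0.06 for KO clone 5. In both clones 14 entries were called, 7 higher (the 7 rises above) and 7 lower (HERVH-int, LTR7Y, HERVH48-int, HERVIP10F-int, PRIMA4-int, LTR39-int and LTR10G). The share of all entries called in both clones is not given here. Of these falls, HERVH-int (0.16), LTR7Y (-0.03), HERVH48-int (-0.32) and PRIMA4-int (-0.12) were not called in KO against WT clone 7 alone. HERVIP10F-int, LTR39-int and LTR10G were. Called in KO clone 1 and not in KO clone 5 were, among others, LTR23-int (1.47, SE 0.38, edgeR adjusted p = 0.0211) and HERV9NC-int (-1.44, edgeR adjusted p = 0.037). LTR23-int was at 2.38 and 2.60 CPM in KO clone 1 and at 1.14 and 0.818 CPM in KO clone 5, against 1.97, 0.526, 0.857, 0.892 and 0.559 CPM in WT libraries. For KO against WT as a whole LTR23-int was not called (0.90, edgeR adjusted p = 0.152) except without WT clone 1 replicate 1 (1.27). HERV17-int, the internal part of HERV-W, was higher in KO clone 5 (0.36, SE 0.09, edgeR adjusted p = 0.0191) and not called in KO clone 1 (0.14). The counts for KO clone 1 were 11 without its replicate 1, 9 without its replicate 2 and 41 without WT clone 1 replicate 1. Those for KO clone 5 were 13 and 8 without its replicates 1 and 2, 59 without WT clone 1 replicate 1 and 16 without WT clone 7 replicate 1. The shares of all tested entries called in these refits are not given here, so the swings are not shown to be particular to ERV1.

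Set directly against each other, the KO clones differed in no ERV1 entry after adjustment in edgeR, where 0.653% of all entries were called, although 35 entries had an unadjusted p below 0.05. DESeq2 called 3, and edgeR called 11 without WT clone 1 replicate 1. The shares of all tested entries called in those fits are not given here. By sign 239 of 282 entries were higher in KO clone 5 than in KO clone 1, with a median of 0.21, beside 0.31 over other repeats. The entries called in only 1 KO clone are therefore not shown to differ between the KO clones.

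Internal and LTR counts of the same provirus were set against each other in 43 families, as the log2 ratio of summed internal to summed LTR counts in each library, in which library scaling cancels. The families cover 57 internal and 143 LTR entries. An exact permutation test moved single libraries between KO and WT, although genotype goes with the clone. Its p therefore covers only how far these libraries differ. With 4 KO and 5 WT libraries the smallest two-sided exact permutation p is 0.00794. This p was reached by 5 families, in which KO and WT ratios did not overlap. In HERV15 the mean ratio was 0.94 ± 0.22 in KO and -0.28 ± 0.25 in WT libraries (SD, n = 4 and 5), a difference of 1.219. In HERV-E it was 1.69 ± 0.13 in KO and 1.02 ± 0.07 in WT libraries, a difference of 0.67. In MER61 it was 1.93 ± 0.08 in KO and 1.43 ± 0.07 in WT libraries, a difference of 0.50. HERV-W differed by 0.17 and HERV-I by -0.23. In all, 12 families had p below 0.05, 10 had no overlap and none passed Benjamini-Hochberg adjustment over the 43 families, the smallest adjusted exact permutation p being 0.0683. With this smallest p and 43 families, a family alone could not pass, however large its difference. The adjusted values therefore do not decide whether the ratio of a single family changed.

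The MER61 ratio depended on which LTRs entered. With MER61A as the only LTR entry, the KO minus WT difference was -0.08 in place of 0.50, since MER61A rose with the internal entry. HERV9 had a difference of -0.79 (exact permutation p = 0.0317, adjusted 0.137), with ratios of -2.97 to -2.81 in KO, -2.72 and -2.61 in WT clone 7 and -2.102 to -1.26 in WT clone 1 libraries. HERVH differed by -0.29 (exact permutation p = 0.0635, adjusted 0.192), or by 0.31 with LTR7 as the only LTR entry.

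**Figure D5:**
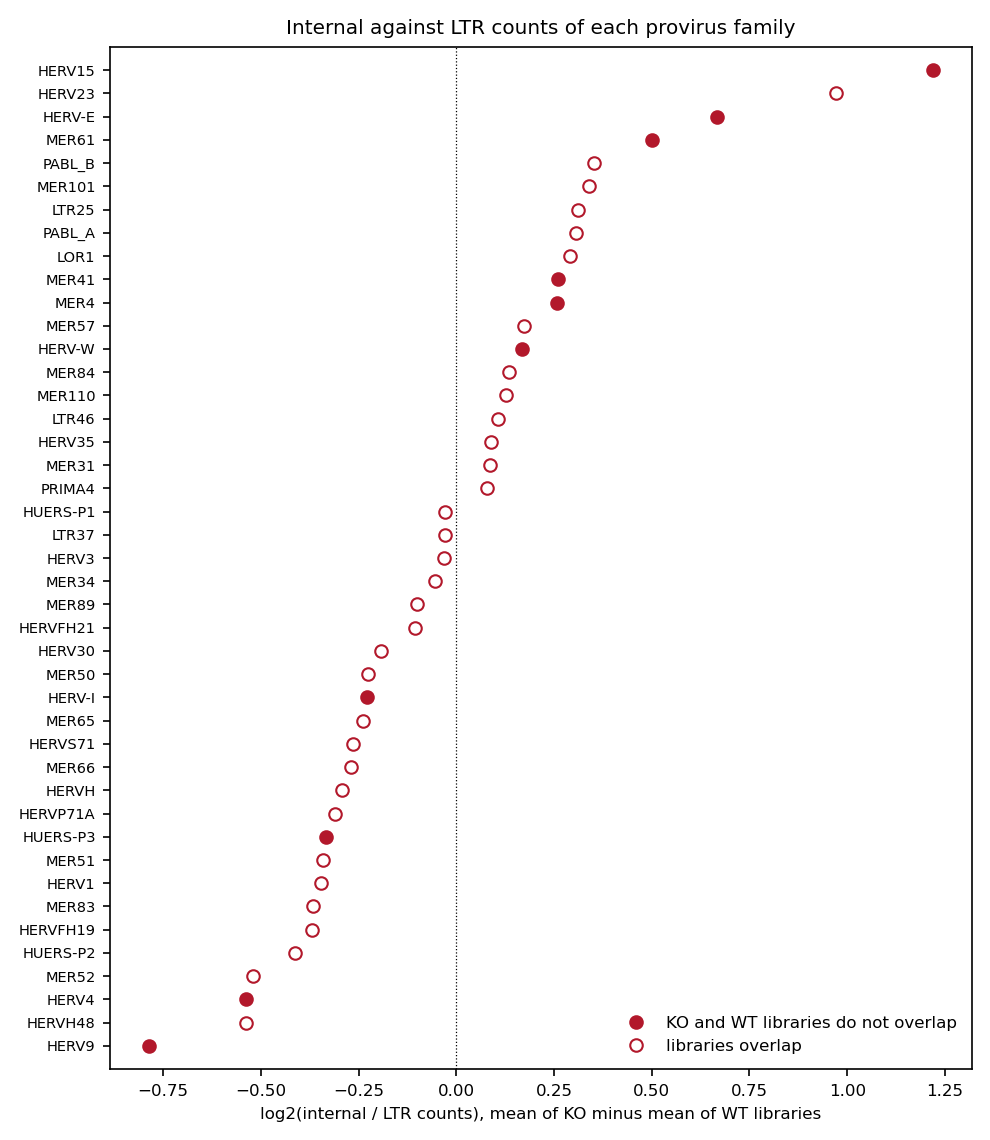
Each point is 1 provirus family, and the x axis is the mean log2 ratio of internal to LTR counts in KO libraries minus that in WT libraries. Filled points mark the 10 families whose KO and WT libraries do not overlap; HERV15 (1.219), HERV-E (0.67) and MER61 (0.50) lie farthest right among them and HERV9 (-0.79) farthest left.

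Other well-known ERV1 entries were not called between KO and WT. HERV17-int, the family of syncytin-1, was at 27.9 to 32.9 CPM in KO libraries and 20.7 to 33.7 CPM in WT libraries (0.18, SE 0.14, edgeR adjusted p = 0.424). Its LTR17 was at 18.6 to 21.4 CPM in KO libraries and 16.03 to 26.1 CPM in WT libraries (0.01, SE 0.14, edgeR adjusted p = 0.97). Against WT clone 7 alone both were higher in KO, HERV17-int by 0.52 (SE 0.10, edgeR adjusted p = 0.00422) and LTR17 by 0.32 (SE 0.09, edgeR adjusted p = 0.0364). Against WT clone 1 alone they were at -0.02 and -0.17 and not called. MER41B, an LTR of the MER41 proviruses, was at 19.5 to 28.6 CPM in KO libraries and 17.6 to 34.3 CPM in WT libraries. MER61C and LTR10A, LTRs known to hold p53 sites, were at 2.03 to 5.26 and 4.24 to 6.38 CPM in KO libraries, against 2.21 to 6.05 and 3.67 to 8.76 CPM in WT libraries. For these 5 entries the KO and WT libraries overlapped. Against WT clone 7 alone, MER61C was at 0.59, LTR10A at 0.42 and MER41B at 0.33, none of them called.

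Of 11 listed protein or transcript genes derived from ERV1 proviruses, ERV3-1, an envelope gene of HERV3, was the one in the table and was not called (8.01 ± 0.36 CPM in KO, n = 4, and 6.92 ± 0.80 CPM in WT, n = 5; 0.21, edgeR adjusted p = 0.179). The other 10 were not analysed here.

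Of 23 listed silencing factors of ERV elements, 5 were called, 2 higher and 3 lower in KO, a share near the 22.1% of all tested entries that were called (medians -0.06 over the list and -0.01 over all entries). ATF7IP, the partner that stabilises SETDB1, was at 55.0 to 61.6 CPM in KO libraries and 84.0 to 95.5 CPM in WT libraries (-0.64, SE 0.06, edgeR adjusted p = 9.04e-06). HELLS, a chromatin remodeller needed for DNA methylation, was at 72.2 to 98.5 CPM in KO libraries and 110 to 150 CPM in WT libraries (-0.59, SE 0.11, edgeR adjusted p = 0.00215). DNMT1, the maintenance DNA methyltransferase, was lower by a smaller step (-0.24, SE 0.06, edgeR adjusted p = 0.00771). MPHOSPH8, of the HUSH complex (0.23, edgeR adjusted p = 0.0177), and MORC3, an ATPase that restrains ERV enhancers (0.27, edgeR adjusted p = 0.00795), were higher. For all 5 the levels of WT clone 7 and WT clone 1 were not called as different.

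ZNF676, a KRAB zinc finger protein that binds LTR12, had 0 counts in all 4 KO libraries, which allows up to 0.0329 CPM over the pooled KO libraries (3 counts, counting error only). It was at 0.992 and 0.559 CPM in WT clone 7 and at 22.0, 5.21 and 5.82 CPM in WT clone 1, and was called between KO and WT (edgeR adjusted p = 0.0101). The NF-Y subunits NFYA, NFYB and NFYC, which bind CCAAT boxes of LTR12, were not called. KLF4, one of the pluripotency factors known to bind LTR7, was at 1.34 to 2.56 CPM in KO libraries, at 9.02 and 11.5 CPM in WT clone 7 and at 64.5, 29.6 and 31.6 CPM in WT clone 1 (-4.08, SE 0.59, edgeR adjusted p = 0.000393). It was also lower in WT clone 7 than in WT clone 1 (-2.04, edgeR adjusted p = 0.0384). The other 3 tested pluripotency factors, POU5F1 (-0.03), SOX2 (0.23) and TFCP2L1 (0.06), were not called. The part of any of these genes in the ERV1 levels was not tested.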

How the data were processed

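RNA of 9 HAP1 libraries was sequenced after removal of ribosomal RNA, with a strand-specific kit and UMI adaptors, per the labels' protocols. The submitters' processing notes name hg38, STAR 2.5.2a, DESeq and DESeq2 1.22.2, and the deposited tables carry the name TEtoolkit. The strand setting, UMI use and the assignment of reads among repeat copies or between genes and repeats were not given. The deposited raw counts are per gene or repeat subfamily, and no row totals less than 37. The authors also deposited a normalized signal (counts over a size factor per library) and a results table with log2 fold changes, a score (the test statistic) and p-values, per the file headers. Only the adjusted p-values and signs of that table were used.

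Genes and repeats stayed in 1 table. With edgeR 4.0.16, entries passed filterByExpr (minimum count 10, by genotype), were scaled by TMM and were tested by quasi-likelihood F tests. A model of genotype alone compared KO with WT, and a model of the 4 clones compared clones. Benjamini-Hochberg adjustment ran over every tested entry, and a call is an adjusted p below 0.05. CPM means counts per 1000000 scaled by TMM, ± is SD, and SE is the log2 difference over the square root of F. The procedure was tested on simulated data. For KO against WT, the simulated clones of a genotype had the same expected levels, so differences between clones were not covered. Ratios of internal to LTR counts (offset 0.5) had a two-sided exact permutation test over single libraries. Software was R 4.3.3, limma 3.58.1, DESeq2 1.42.0, Python 3.11.15, numpy 2.4.6 and matplotlib 3.10.9.

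The members, lists, provirus families and alternatives were chosen with earlier results of these data known, and 1 wrong pattern in the family table (MER41-int counted with MER4) was corrected afterwards. Named were the 8 largest rises and falls among calls whose mean CPM reached 1 and whose libraries did not overlap (6 rises passed), the 3 largest called each way per clone comparison, and a fixed set of well-known entries. PRIMA41-int, PRIMA4-int, LTR49-int, LTR27C, MER51C and HUERS-P3b-int were named as the other calls, and HERV9N-int, PABL_B-int and uncalled family members after their values were seen. Same-numbered libraries deviated together over all entries (correlations 0.101 to 0.507 in 12 comparisons, -0.068 to 0.149 over ERV1 alone), so replicate number was also fitted as a block. In clones with 2 libraries the deviations mirror each other, and these comparisons are not independent.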

Additional observations from a re-analysis of the deposited data

Results flagged for a closer look

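The 32 named ERV1 entries were checked within the 4 KO and within the 5 WT libraries, 64 sets in all, for a library whose gap to its neighbour exceeds Dixon's 95% critical value (0.829 for 4 and 0.71 for 5 libraries). Chance gives about 1 such value in 20 sets, so a few of the 64 sets would be flagged by chance. The sets share libraries and are not independent, and the 5 found are not shown to exceed chance. WT clone 1 replicate 1 was the highest WT library in 4 of them, at 138 CPM for HERV9NC-int, 41.9 CPM for HUERS-P3b-int, 9.25 CPM for PRIMA41-int and 1.97 CPM for LTR23-int. In the KO libraries, LTR7B was lowest in KO clone 1 replicate 1, at 13.4 CPM, against 16.1 to 16.6 CPM in the other 3. WT clone 1 replicate 1 also had the largest repeat share of the 9 libraries, and its part in these values was not tested.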

How the results depend on the processing

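Of 21 ERV1 entries called between KO and WT, HERVE_a-int, Harlequin-int, MER61-int, MER61A, HERV15-int, MER83B and LTR10G kept call and direction in every alternative run on them. RLE scaling, scaling from genes only and no filter on low counts left each count within 1.5 times. Summing the libraries of each clone gave 9 calls (2 lower, 6 internal, 3 LTR), where 7.61% of all tested entries were called. With replicate number as a block, 6 entries were lower and 5 LTR entries were called, against 14 and 8. A four-clone fit that weights clones equally, chosen after seeing the data, gave 34 calls (16 higher, 19 LTR). In that fit 26.3% of all tested entries were called. Leaving out KO clone 1 gave 9 calls (3 lower, 5 internal, 4 LTR), leaving out KO clone 5 gave 12 (6 lower, 7 internal, 5 LTR), leaving out WT clone 1 gave 40 (37 higher, 3 lower, 23 LTR; 76 for KO clone 5, 3 between KO clones), and leaving out WT clone 7 gave 56 (49 lower, 26 internal, 30 LTR; 67 for KO clone 1). With those clones left out, in the same order, 11.9%, 13.5%, 20.5% and 20.5% of all tested entries were called between KO and WT. The 11 calls between the WT clones became 26 with a stricter filter, 18 with robust dispersion, 65 with DESeq2 and 0 without either KO clone. DESeq2 called 3 entries between the KO clones. Leaving out 1 library gave 12 to 27 calls (7 to 11 higher, 5 to 20 lower, 9 to 15 internal, 3 to 13 LTR), 9 to 41 for KO clone 1, 8 to 59 for KO clone 5, 0 to 11 between the KO clones and 0 to 60 between the WT clones. With 1 library left out, 16.8% to 22.4% of all tested entries were called between KO and WT. For the comparisons of clones, such shares under these alternatives are not given here. Their counts are therefore not shown to be particular to ERV1. Entries not called between KO and WT changed sign. Without 1 library, LTR17 ran from -0.063 to 0.117, MER41B from -0.197 to 0.04, LTR10A from -0.246 to 0.067 and MER61C from -0.157 to 0.314. MER41B and LTR10A were 0.025 and 0.015 with clones summed, 0.009 and 0.023 in the four-clone fit and 0.052 and 0.024 without KO clone 1. Without KO clone 5, LTR7 was -0.052, LTR17 -0.073 and MER61C -0.4. Without WT clone 1, HERVH-int was 0.163, LTR7B 0.08, LTR12C 0.27, MER41B 0.325 and LTR10A 0.416. Without WT clone 7, LTR7 was -0.049, HERV17-int -0.019, LTR17 -0.167 and MER61C -0.203. With the LTR entry of most counts alone, the internal to LTR difference was 0.306 for HERVH and -0.079 for MER61. Why these values moved was not tested. Entries near 1 CPM rest on few counts, which limits their precision.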

Other observations

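Several ERV1 entries were called in 1 KO clone only, and are described here although they were chosen after their values were seen. The comparisons share the WT libraries, and none of these entries was called between the KO clones. A pair of them belong to LTR1, the LTR family of the HUERS-P2 proviruses. LTR1D1 was at 12.2 and 12.5 CPM in KO clone 5 and at 7.37 and 7.27 CPM in KO clone 1, against 4.90 to 10.5 CPM in WT libraries. It was higher in KO clone 5 than in WT (0.87, SE 0.14, edgeR adjusted p = 0.00142), at 0.12 for KO clone 1 (edgeR adjusted p = 0.616), and at 0.76 for KO clone 5 against KO clone 1 (edgeR adjusted p = 0.0996). LTR1E was lower in KO clone 1, at 2.497 and 2.45 CPM there and at 4.46 and 4.20 CPM in KO clone 5, against 4.28 to 7.22 CPM in WT libraries (-1.04 for KO clone 1, SE 0.17, edgeR adjusted p = 0.00176; -0.23 for KO clone 5). HUERS-P2-int was lower in KO clone 1 as well, at 1.28 and 1.30 CPM there and at 2.80 and 2.56 CPM in KO clone 5, against 1.86 to 3.70 CPM in WT libraries (-0.93 for KO clone 1, SE 0.23, edgeR adjusted p = 0.0162).

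HERVS71-int had 16.4 and 18.6 CPM in KO clone 1 and 29.6 and 28.7 CPM in KO clone 5, against 20.8 and 22.3 CPM in WT clone 7 and 53.3, 33.2 and 35.1 CPM in WT clone 1 (-0.74 for KO clone 1, SE 0.17, edgeR adjusted p = 0.012). KO clone 5 lay between the WT clones, and KO clone 1 below both. MER52A, an LTR, was higher in KO clone 5, at 74.1 and 81.0 CPM there and at 56.0 and 52.9 CPM in KO clone 1, against 41.3 to 77.2 CPM in WT libraries (0.56 for KO clone 5, SE 0.10, edgeR adjusted p = 0.00317). It was also among the entries lower in WT clone 7 than in WT clone 1 (-0.63, edgeR adjusted p = 0.0436).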
